A study of Mus musculus with 8 samples.

Results

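The genes described here are the cytosolic and mitochondrial glutathione transferases of mouse liver together with a panel of NRF2 targets and antioxidant enzymes. The members are every row of the expression table whose symbol begins with Gsta, Gstk, Gstm, Gsto, Gstp or Gstt followed by a digit (pseudogenes left out), plus Nfe2l2, Keap1, Nqo1, Hmox1, Txnrd1, Srxn1, Gsr, Gpx1, Gpx4, Cbr3, Ephx1, Cat, Sod1, Sod2 and Prdx1. This rule found 35 of the 25010 genes in the table, of which 20 are glutathione transferases and 15 belong to the NRF2 and antioxidant panel. The rule itself uses gene names and no measured value, but the set was proposed with earlier results of these data known.

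The study asked how loss of both liver X receptors, the oxysterol-activated nuclear receptors LXRα (Nr1h3) and LXRβ (Nr1h2), alters transcription and chromatin in liver. RNA-Seq was performed on the left lobe of liver from 2 wild-type (WT) mice and 2 LXR double knockout (LXRDKO) mice, all 8 weeks old, on a C57BL/6 background and fasted for 4 to 6 h before tissue was taken. The 4 ATAC-Seq libraries among the 8 samples of the series were not analysed here. The deletion is present in the whole body, so every cell type of an LXRDKO liver lacks the receptors, and in whole tissue fewer cells of a type and less RNA per cell cannot be told apart. The labels give no sex, but the Y-linked transcript Ddx3y was between 4242 and 4916 normalized counts in the 4 livers while Xist was at most 10.4.

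Glutathione transferases join the tripeptide glutathione to electrophilic drugs, lipid peroxidation products and other reactive compounds, which are then exported from the cell, and hepatocytes carry large amounts of them. The alpha, mu, pi and theta classes are cytosolic, the kappa enzyme is mitochondrial and peroxisomal, and omega enzymes also act as reductases, for example of dehydroascorbate. NRF2, encoded by Nfe2l2, is the transcription factor that drives many of these genes through antioxidant response elements, and KEAP1 holds it in check by sending it for degradation until electrophiles or oxidants modify KEAP1.

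Values are normalized counts, that is reads per gene divided by a factor for the depth of each library. The libraries held 55772659 and 72842744 reads on genes in WT against 63681131 and 56281367 in LXRDKO. Reads from mitochondrial genes made up 4.80 to 5.89% of each library, and the 10 most abundant genes took 18.2 to 20.5%. Transcripts of the targeted genes were lower in LXRDKO livers, with Nr1h3 at 5785 and 5322 normalized counts in WT against 1712 and 1826 in LXRDKO (log2 fold change −1.65) and Nr1h2 at 2987 and 3110 against 925 and 1003 (−1.66), each with a limma adjusted P value of 0.0147. Hepatocyte markers were abundant in every liver, with albumin between 4644569 and 5959085 normalized counts.

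None of the 34 members that could be tested was significantly up-regulated or down-regulated in LXRDKO liver. limma on log2(normalized count + 1), with Benjamini-Hochberg adjustment over the 15578 genes whose mean reached 10 normalized counts, called 0 members at an adjusted P value under 0.05, against 0.321% of all genes tested. DESeq2 on the recovered reads, which called 3.59% of all genes, also called 0 members, and edgeR, which called 0.315%, called 0. At an unadjusted P value under 0.05 limma picked out 4 members of 34, beside 13.3% of all genes. Of these Gstk1, Gstm7 and Gstt3 were lower in LXRDKO (3 of 34, beside 7.50% of all genes) and Ephx1 was higher (1 of 34, beside 5.77%). Gsto2 was left untested because it had 3 reads in each WT library and 4 and 6 reads in the LXRDKO libraries.

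The directions within the set were mixed. By the mean of the log2 values, LXRDKO livers were higher for 15 members and lower for 19, with a median log2 fold change of −0.053 beside −0.0046 over all genes tested. Hmox1, counted among the 15, had a lower mean in LXRDKO on the scale of normalized counts. The median was −0.058 for the glutathione transferases, with a range from −0.45 to 1.13, and −0.018 for the NRF2 and antioxidant genes, with a range from −0.18 to 0.94. The glutathione transferase median rested on the WT livers, since it became −0.25 without WT replicate 1 and 0.081 without WT replicate 2. The median size of the log2 fold change, regardless of sign, was 0.164 for the members and 0.173 for all genes tested.

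The genotypes did not overlap for 12 of the 34 members tested, beside 44.7% of all genes tested. The LXRDKO pair was above the WT pair for 5 members, beside 21.7% of all genes, and below it for 7, beside 23.0%. The 5 above were Gstm5, Gstp1, Gstp3, Cbr3 and Ephx1, and the 7 below were Gstk1, Gstm7, Gsto1, Gstt3, Txnrd1, Prdx1 and Sod1. For the other 22 members the genotypes overlapped. For 2 livers against 2, the smallest P value open to an exact two-sided permutation test is 0.333, so the tests of single genes rest on limma's pooling of the spread across genes.

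The intervals set how large a difference could have gone unseen. The 95% interval of the log2 fold change lay entirely within −1 to 1 for 27 of the 34 members, beside 68.5% of all genes tested. It lay within −0.5 to 0.5 for 13 of the 34 members, beside 5919 of the 15578 genes tested. The 7 members with wider intervals were Gsta1, Gsta2, Gstm3, Gstp2, Gstt2, Nqo1 and Cbr3, for which a difference of 2-fold in one direction or both was not excluded by these livers.

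**Figure D1:**
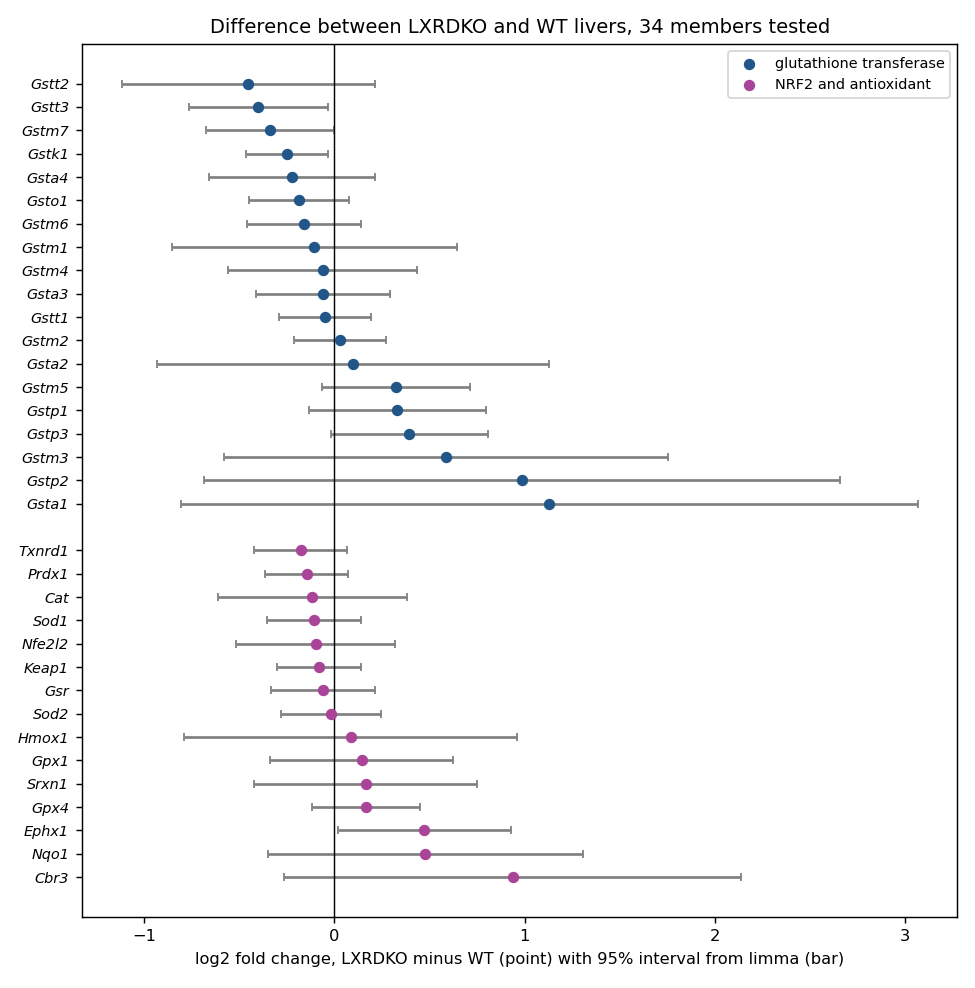
Log2 fold change of LXRDKO minus WT for the 34 members tested, with the 95% interval from limma as a bar (2 livers per genotype). The widest intervals belong to Gsta1, Gstp2, Gstm3 and Cbr3, and the interval of Ephx1, from 0.016 to 0.93, is the one of the NRF2 and antioxidant panel that does not cross 0.

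Abundance differed widely among the members. Per length, as reads per kilobase of exon scaled to the reads on genes of each library (RPKM) and averaged over the 4 livers, catalase (Cat) stood at 1399 and ranked 33 among all genes in the table, followed by Gstp1 at 872 (rank 51), Gpx1 at 866 (rank 52) and Gstm1 at 584 (rank 75). Ephx1 stood at 297 and Gsta3 at 249 on the same scale. At the other end Gsta1 stood at 1.05, Gstp2 at 1.04, Cbr3 at 0.573 and Gsto2 at 0.0281. The 20 glutathione transferases together took 0.379 and 0.423% of all reads on genes in WT, compared with 0.389 and 0.467% in LXRDKO, so the genotypes overlapped in the summed amount.

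**Figure D2:**
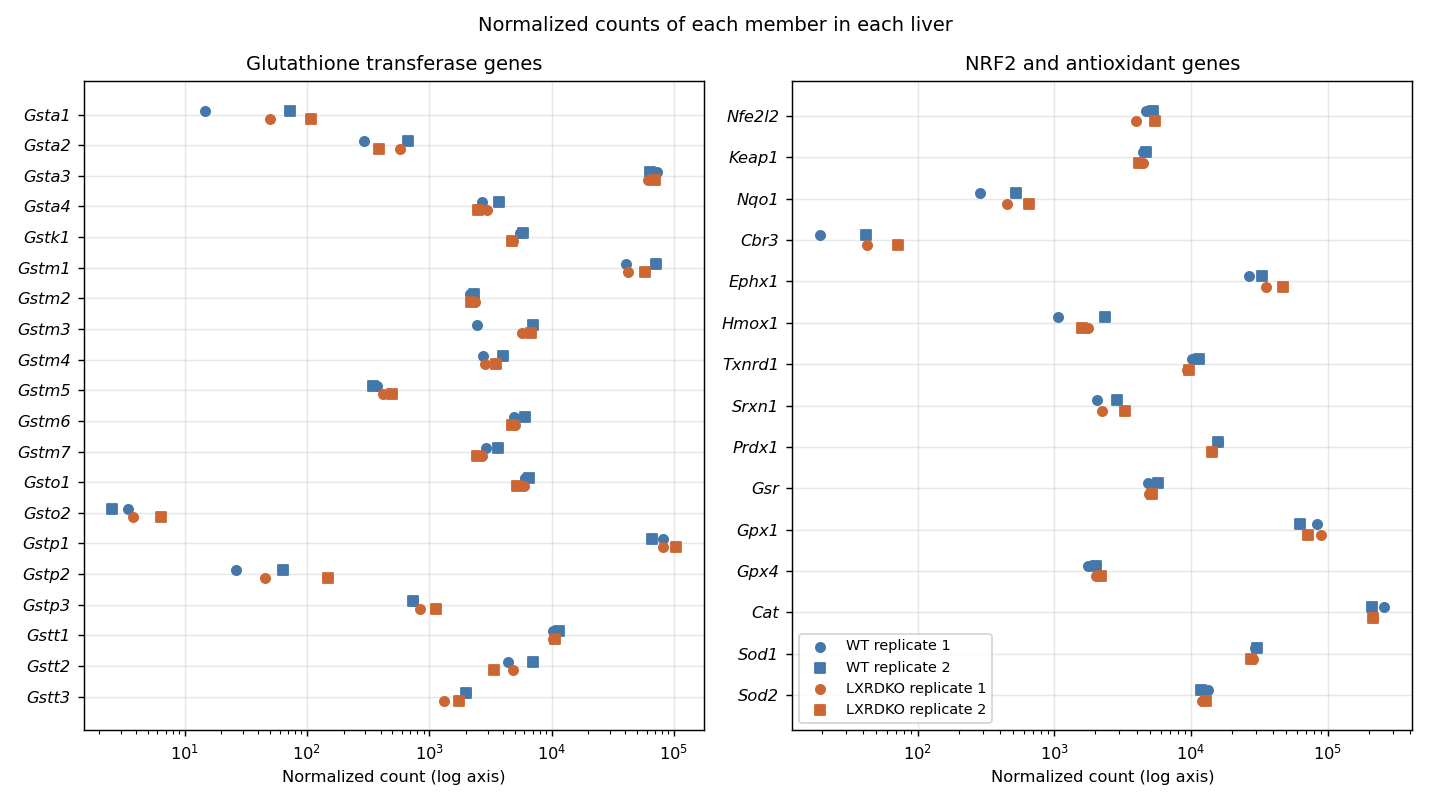
Normalized counts of the 35 members in each of the 4 livers on a log axis, glutathione transferases on the left and NRF2 and antioxidant genes on the right. Circles and squares mark replicates 1 and 2, and WT replicate 1 is the lowest point for Gsta1, Gstm3, Gstp2, Nqo1, Cbr3 and Hmox1.

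The alpha class, whose enzymes conjugate products of lipid peroxidation and reduce lipid hydroperoxides, is represented by Gsta1, Gsta2 and Gsta4 on chromosome 9 and by Gsta3 on chromosome 1. Gsta3 was the main alpha transcript, at 72083 and 63848 normalized counts in WT against 61044 and 69590 in LXRDKO. Its genotypes overlapped, with a log2 fold change of −0.058 ± 0.14 (SE) and an interval from −0.41 to 0.29. Gsta1 was at 14.8 and 72.1 in WT against 50.3 and 107 in LXRDKO. By limma this was the largest difference among the members, at a log2 fold change of 1.13 ± 0.78, while DESeq2 gave 0.84 and placed Gstp2 (1.09) and Cbr3 (0.89) above it. The WT livers differed from each other 4.87-fold, and the limma adjusted P value was 0.615. Without WT replicate 1 the log2 fold change was 0.027, and without WT replicate 2 it was 2.23. For Gsta2 the WT livers were also uneven, at 293 and 671, and the LXRDKO livers lay between them at 582 and 387. The log2 fold change of Gsta2 was 0.097 ± 0.42. Gsta4, which prefers the aldehyde 4-hydroxynonenal, had overlapping genotypes and a log2 fold change of −0.22 ± 0.18.

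Reads of the low alpha genes are uncertain because of near-identical copies. Reads were 50 bases long, and 90.5% of the 50-base words in Gsta1 transcripts also occur in another gene of the GENCODE M21 annotation, most of them in the neighbouring gene model Gm3776, with which 75.7% were shared. For Gsta2 49.8% of all words were shared with another gene, and 36.0% of all words were shared with Gsta1. Among the 20 glutathione transferases 10 shared over 5% of their words with another gene and 7 shared none. The 10 were not only alpha genes, since they included Gstp1 (33.7%), Gstm3 (28.8%), Gstm1 (18.9%) and Gstt3 (12.5%). How reads with several matches were counted is not given in the sources used here.

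The mu class formed 1 cluster on chromosome 3, from Gstm5 (chr3:107895821-107898686) to Gstm4 (chr3:108040408-108044894) in GRCm38, and 3 of its 7 members were higher and 4 lower in LXRDKO. Gstm1, the most abundant mu enzyme, was at 40269 and 70739 normalized counts in WT against 42080 and 58471 in LXRDKO. The low liver of each genotype was close to that of the other, and the log2 fold change was −0.11 ± 0.30. Gstm3 was at 2436 and 7060 in WT against 5697 and 6824 in LXRDKO.

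The value of Gstm3 depended on which WT liver was used. WT replicate 1 was far below the other livers, 2.90-fold under WT replicate 2, and the log2 fold change of 0.59 ± 0.47 had a limma adjusted P value of 0.665. Without WT replicate 2 the log2 fold change was 1.36 and the limma adjusted P value 0.0135, the only case in which leaving out a library brought a member past the threshold, and without WT replicate 1 it was −0.18. In either case WT was a single liver, so the spread came from the LXRDKO livers alone and the lone WT liver was assumed to vary like them.

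Gstm7 and Gstm5 were the mu genes whose genotypes did not overlap. Gstm7 was at 2914 and 3646 normalized counts in WT against 2708 and 2449 in LXRDKO, a log2 fold change of −0.34 ± 0.14 (unadjusted P = 0.0478, limma adjusted P = 0.370). The LXRDKO pair was thus the lower one, by a margin to WT replicate 1 that was smaller than the gap between the WT livers. Gstm5, a mu enzyme known from brain and testis, was at 378 and 348 in WT against 416 and 494 in LXRDKO (log2 fold change 0.32 ± 0.16, limma adjusted P = 0.456). Gstm2, Gstm4 and Gstm6 had overlapping genotypes and log2 fold changes between −0.16 and 0.029.

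All 3 pi genes, which lie side by side on chromosome 19, had higher means in LXRDKO, although none passed the test. Gstp1, the main pi enzyme, was at 81212 and 65606 normalized counts in WT against 81329 and 103698 in LXRDKO. LXRDKO replicate 1 was nearly level with WT replicate 1, and the log2 fold change was 0.33 ± 0.19 (limma adjusted P = 0.531). Gstp3 was at 739 in both WT livers and at 836 and 1129 in LXRDKO, a log2 fold change of 0.39 ± 0.17 (limma adjusted P = 0.396). Gstp2 was at 26.2 and 63.7 in WT against 45.6 and 148 in LXRDKO, with overlapping genotypes and a log2 fold change of 0.99 ± 0.67.

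Gstp2 is shown beside Gstp1 because the low count of the former sits next to one of the most abundant transcripts of the set. Their coding sequences are both 630 bases long in the GRCm38 annotation, differ at 12 positions (98.1% identity) and share an unbroken identical run of 300 bases, which is longer than a read. Over whole transcripts 54.3% of the 50-base words of Gstp2 occur in another gene, and 49.1% occur in Gstp1. The first 60 coding bases of each are printed 5′ to 3′, with the 6 positions at which they differ in capitals.
Gstp1: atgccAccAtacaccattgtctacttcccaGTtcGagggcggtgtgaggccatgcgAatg
Gstp2: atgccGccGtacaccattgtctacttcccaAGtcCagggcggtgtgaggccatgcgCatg
Gstp2 reads amounted to 0.0323 and 0.0970% of Gstp1 reads in WT, compared with 0.0560 and 0.143% in LXRDKO. The share was lowest in WT replicate 1 and highest in LXRDKO replicate 2, and how much of the Gstp2 count came from Gstp1 molecules was not tested. Gstp3 is more distant, with 178 mismatches to Gstp1 (71.7% identity) and a longest identical run of 35 bases.

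The 3 theta genes, which handle small halogenated compounds and lie together on chromosome 10, all had lower means in LXRDKO, and none passed the test. Gstt3 was at 2006 and 2000 normalized counts in WT against 1326 and 1737 in LXRDKO. The WT livers were almost equal while the LXRDKO livers were both lower, at a log2 fold change of −0.40 ± 0.15 (unadjusted P = 0.0364, limma adjusted P = 0.340). Gstt2 was at 4398 and 7052 in WT against 4884 and 3393 in LXRDKO, a log2 fold change of −0.45 ± 0.27 with overlapping genotypes (limma adjusted P = 0.551). Gstt1, the most abundant theta gene, had a log2 fold change of −0.049 ± 0.098.

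The kappa enzyme Gstk1 was at 5482 and 5831 normalized counts in WT against 4811 and 4709 in LXRDKO. Both LXRDKO livers were lower and the livers of each genotype lay close together. The log2 fold change was −0.25 ± 0.087, with the smallest unadjusted P value of the set (0.0307) and a limma adjusted P value of 0.319. Gsto1, which reduces dehydroascorbate and methylated arsenic species, was at 6045 and 6562 in WT against 5907 and 5186 in LXRDKO (log2 fold change −0.19 ± 0.11).

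Neither NRF2 nor its inhibitor passed the test at the transcript level. Nfe2l2 was at 4708 and 5277 normalized counts in WT against 3957 and 5470 in LXRDKO. The LXRDKO livers enclosed the WT livers, and the log2 fold change was −0.099 ± 0.17 with an interval from −0.52 to 0.32. Keap1 was at 4446 and 4665 in WT against 4450 and 4167 in LXRDKO, a log2 fold change of −0.081 ± 0.089 with an interval from −0.30 to 0.14. NRF2 is regulated mainly through the stability of its protein, which RNA-Seq does not measure.

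The 3 enzymes that detoxify quinones, carbonyls and epoxides all had higher means in LXRDKO, and none passed the test. Nqo1, which reduces quinones to hydroquinones and is the classical readout of NRF2, was at 285 and 528 normalized counts in WT against 449 and 652 in LXRDKO. Its genotypes overlapped, at a log2 fold change of 0.48 ± 0.33 (limma adjusted P = 0.619). Cbr3, a carbonyl reductase, was at 19.4 and 41.6 in WT against 42.7 and 71.8 in LXRDKO, at a log2 fold change of 0.94 ± 0.48 (limma adjusted P = 0.482). Both genes were lowest in WT replicate 1.

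Ephx1, the microsomal epoxide hydrolase, was at 26438 and 32954 normalized counts in WT against 35595 and 47075 in LXRDKO. Both LXRDKO livers were higher, LXRDKO replicate 1 by a small margin. The log2 fold change was 0.47 ± 0.18, or 1.39-fold, with an unadjusted P value of 0.0445, a limma adjusted P value of 0.361 and a DESeq2 adjusted P value of 0.190, the lowest of the members by that tool.

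Hmox1, which breaks down heme and is expressed in macrophages as well as hepatocytes, was at 1062 and 2334 normalized counts in WT against 1753 and 1591 in LXRDKO. The LXRDKO livers lay between the WT livers, so the genotypes overlapped completely. The limma log2 fold change was 0.085 ± 0.35, while DESeq2 and edgeR placed it at −0.023 and −0.017. Kupffer cell markers moved with genotype in the same livers, their sum being 12955 and 14098 normalized counts in WT against 6818 and 3998 in LXRDKO. Of the 9 markers 7 were lower in both LXRDKO livers (beside 23.0% of all genes tested). limma called 4 significantly down-regulated (beside 0.186%) and DESeq2 called 6 (beside 2.03%). C1qa and Csf1r had overlapping genotypes, with log2 fold changes of −0.19 and 0.052. Among the defining markers Clec4f was at 3309 and 3369 in WT against 575 and 333 in LXRDKO, and Timd4 was at 0 in LXRDKO replicate 2. The part of this in the value of Hmox1 was not tested.

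None of the 3 members of the thioredoxin system passed the test. Txnrd1, the cytosolic thioredoxin reductase, was at 10167 and 11377 normalized counts in WT against 9349 and 9664 in LXRDKO, so that both LXRDKO livers were lower, at a log2 fold change of −0.18 ± 0.098 (limma adjusted P = 0.516). Prdx1, a peroxiredoxin, differed by −0.15 ± 0.088, and its livers were also apart. Srxn1, the sulfiredoxin that restores overoxidized peroxiredoxins, was at 2058 and 2872 in WT against 2241 and 3311 in LXRDKO, with replicate 2 higher in both genotypes.

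The glutathione-dependent peroxidases and reductase had overlapping genotypes. Gpx1, the main cytosolic glutathione peroxidase, was at 83079 and 63113 normalized counts in WT against 88957 and 72032 in LXRDKO, at a log2 fold change of 0.14 ± 0.19. In this gene replicate 1 was the higher liver of both genotypes, the opposite of Srxn1. Gpx4, which reduces lipid hydroperoxides in membranes, and Gsr, which regenerates reduced glutathione, had log2 fold changes of 0.16 ± 0.11 and −0.059 ± 0.11. For Gpx4 34.7% of 50-base words occur in another gene, mainly its pseudogene Gpx4-ps2.

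Catalase and the superoxide dismutases, which remove hydrogen peroxide and superoxide, had lower means in LXRDKO, and none of the 3 passed the test. Cat was at 259897 and 210155 normalized counts in WT against 216172 and 214924 in LXRDKO, and WT replicate 1 alone stood above the other livers. The log2 fold change was −0.12 ± 0.20 with an interval from −0.61 to 0.38. Sod1 differed by −0.11 ± 0.10 and Sod2, the mitochondrial enzyme, by −0.018 ± 0.11 on the log2 scale.

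Livers of the same genotype differed more in these genes than in the table as a whole. The median difference between the WT livers, regardless of sign, was 0.293 on the log2 scale for the members and 0.184 for all genes tested, and between the LXRDKO livers it was 0.249 and 0.174. The WT livers differed by over 1 on the log2 scale in 6 members (17.6%), namely Gsta1, Gstm3, Gstp2, Gsta2, Hmox1 and Cbr3, against 6.28% of all genes tested. The LXRDKO livers did so in Gsta1 and Gstp2. For 22 members (64.7%) the WT livers differed from each other by more than the genotypes did, beside 52.2% of all genes tested.

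WT replicate 1 was the lowest of the 4 livers for 16 of the 34 members (47.1%), beside 24.9% of all genes tested. WT replicate 2 was the lowest for 5, LXRDKO replicate 1 for 4 and LXRDKO replicate 2 for 9. WT replicate 2 was the highest for 16 members and LXRDKO replicate 2 for 11. The genes with a low WT replicate 1 came from several classes, among them Gsta1 and Gsta2, Gstm1, Gstm3 and Gstm4, Gstp2, Nqo1, Cbr3, Ephx1, Hmox1 and Srxn1. These shares are descriptions of 4 libraries, and genes of a set are not independent of each other.

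**Figure D3:**
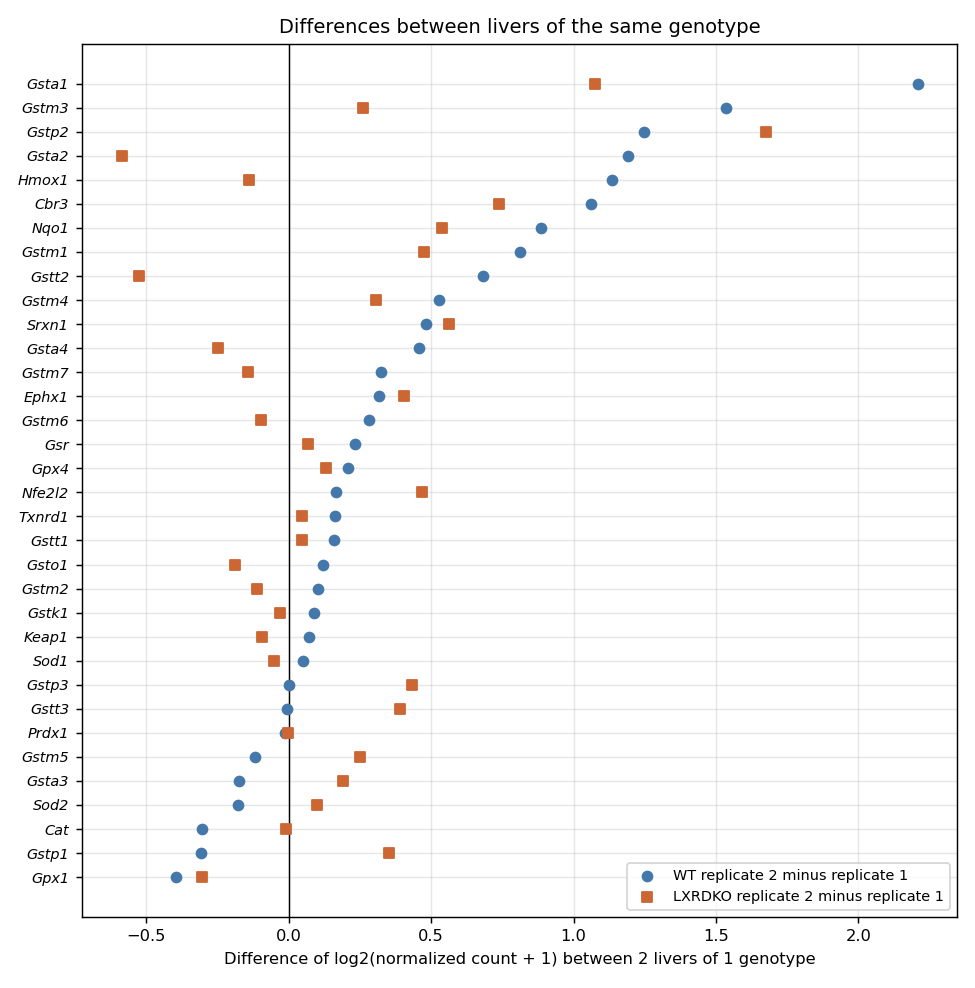
Difference of log2(normalized count + 1) between the 2 livers of each genotype, replicate 2 minus replicate 1, for the 34 members tested. Most WT points lie to the right of 0, and Gsta1, Gstm3, Gstp2, Gsta2, Hmox1 and Cbr3 lie beyond 1.

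Promoters of the members were searched for the core of the antioxidant response element, written TGACNNNGC with N for any base, on both strands of the 300 bases from 250 before to 50 after the RefSeq start (GRCm38.p6). Where a gene had several starts in that set, each was searched, and the gene was counted if any promoter held the core. Of the 31 members with a promoter in that set 8 held the core (25.8%), beside 14.0% of 27025 genes. The share was 3 of 18 glutathione transferases (16.7%) and 5 of 13 NRF2 and antioxidant genes (38.5%). Gsta4, Gstt2, Hmox1 and Gsr had no promoter in that set. The 8 matches are printed with 10 bases on each side. Each is read 5′ to 3′ on the strand that carries the core, which is in capitals.
Gsta3: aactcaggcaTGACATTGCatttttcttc
Gstm5: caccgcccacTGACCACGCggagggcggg
Gstm7: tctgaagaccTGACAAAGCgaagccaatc
Nfe2l2: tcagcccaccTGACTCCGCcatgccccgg
Prdx1: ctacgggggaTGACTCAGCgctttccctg
Srxn1: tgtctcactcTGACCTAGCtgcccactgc
Txnrd1: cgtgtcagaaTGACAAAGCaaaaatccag
Sod1: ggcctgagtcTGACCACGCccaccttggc
The windows lie at chr1:21240454-21240482 on the plus strand for Gsta3 and chr3:107895802-107895830 on the plus strand for Gstm5. On the minus strand lie chr3:107931725-107931753 for Gstm7, chr2:75704885-75704913 for Nfe2l2, chr4:116685456-116685484 for Prdx1, chr2:152105542-152105570 for Srxn1, chr10:82859104-82859132 for Txnrd1 and chr16:90220696-90220724 for Sod1. The Txnrd1 promoter with the match (chr10:82858956-82859255) belongs to a start inside the gene model, which begins at chr10:82833951.

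The 8 genes with a core differed in direction, with Gstm5 and Srxn1 at log2 fold changes of 0.32 and 0.16 and the other 6 between −0.34 and −0.058. A match to these letters is not a binding site, and enhancers outside the window were not searched. The exact LXR repeat is 2 copies of AGGTCA in the same direction with any 4 bases between them, to which LXR binds with its partner RXR. It occurred in none of the 31 members' promoters and in 4 of the 27025 genes (0.0148%). A match this rare cannot show whether the members hold LXR sites, and imperfect repeats were not searched.

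Further genes of the same pathways were taken from lists on glutathione synthesis and export and on other glutathione transferases with related proteins. Other lists covered further NRF2 targets, NRF2 regulators, peroxide and thiol enzymes, and xenobiotic receptors with their sentinel targets. The expression table held 111 of the listed genes and 104 of these were tested, 49 with a higher and 55 with a lower mean log2 value in LXRDKO and a median log2 fold change of −0.0077. limma called 1 of them up-regulated (beside 0.135% of all genes) and 0 down-regulated (beside 0.186%), and DESeq2 called 2 up-regulated (beside 1.56%) and 4 down-regulated (beside 2.03%).

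The gene past the threshold in limma was Cyp2b10, a cytochrome P450 that is the sentinel target of the xenobiotic receptor CAR. It was at 348 and 499 normalized counts in WT against 1825 and 2099 in LXRDKO. Both LXRDKO livers were far above both WT livers, at a log2 fold change of 2.23 ± 0.20 (limma adjusted P = 0.0280). The fold change kept its size but missed the threshold in limma without the trend (adjusted P = 0.217), without LXRDKO replicate 1 (2.33, adjusted P = 0.160) and without LXRDKO replicate 2 (2.13, adjusted P = 0.156). The receptor gene itself, Nr1i3, was at 33393 and 21433 in WT against 28626 and 26900 in LXRDKO, where the WT livers enclosed the LXRDKO livers. The other gene up-regulated by DESeq2 was Gpx3, the secreted glutathione peroxidase, at 305 and 315 in WT against 501 and 613 in LXRDKO (limma log2 fold change 0.84 ± 0.16, limma adjusted P = 0.131, DESeq2 adjusted P = 0.00509).

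Glutathione synthesis was represented by both subunits of its rate-limiting enzyme. Gclc, the catalytic subunit, was at 18286 and 20110 normalized counts in WT against 13856 and 11855 in LXRDKO. Both LXRDKO livers were lower, at a limma log2 fold change of −0.58 ± 0.12 with an adjusted P value of 0.145 by limma and 0.00509 by DESeq2. Gclm, the modifier subunit, was at 14708 and 15363 in WT against 13473 and 13611 in LXRDKO, a log2 fold change of −0.15 (limma adjusted P = 0.550). Slc7a11, the cystine importer, had 2 and 5 reads in WT against 6 and 14 in LXRDKO and was not tested.

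DESeq2 also called Me1, Osgin1 and Maff down-regulated, while limma did not. Me1, malic enzyme, which makes NADPH and serves lipid synthesis, was at 8849 and 10371 normalized counts in WT against 2787 and 4655 in LXRDKO (limma log2 fold change −1.41 ± 0.24, limma adjusted P = 0.120, DESeq2 adjusted P = 1.76e-06). Osgin1, an oxidative stress response gene, was at 10623 and 11104 in WT against 8064 and 8036 in LXRDKO (limma adjusted P = 0.141, DESeq2 adjusted P = 0.0223). Maff, a small MAF protein that pairs with NRF2 on DNA, was at 436 and 500 in WT against 234 and 309 in LXRDKO (limma adjusted P = 0.202, DESeq2 adjusted P = 0.0364). In each of these 3 genes the LXRDKO pair lay wholly under the WT pair.

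None of the 8 genes tested from the list of other glutathione transferases and related proteins passed the test. The list held Gstz1, Mgst1, Mgst2, Mgst3, Hpgds, Ptges, Gstcd, Eef1g, Clic1, Clic4 and Gdap1, and not all of these are glutathione transferases. Mgst1, the microsomal enzyme, was at 173022 and 139930 normalized counts in WT against 135562 and 157667 in LXRDKO (log2 fold change −0.09), and its level per length of 1222 ranked 37 among all genes. Gstz1, which also acts in tyrosine breakdown, was at 44912 and 39622 in WT against 39300 and 40815 in LXRDKO.

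**Figure D4:**
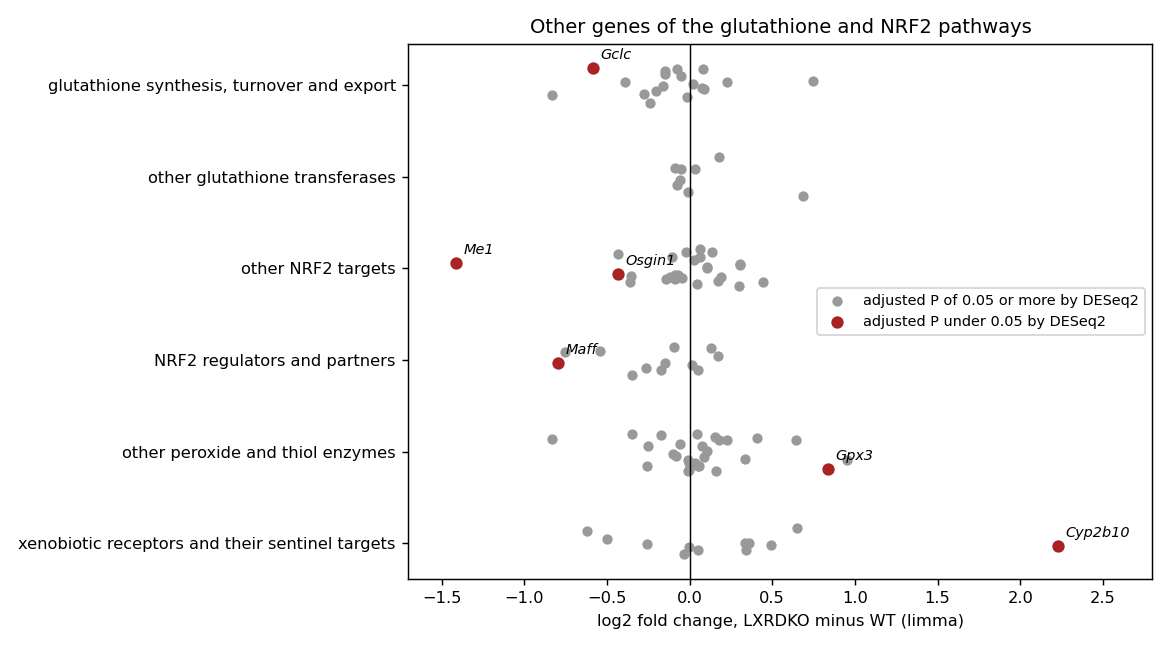
Log2 fold change of LXRDKO minus WT (limma) for the 104 other genes of the pathways that were tested, 1 point per gene in 6 lists. Red points have a DESeq2 adjusted P value under 0.05, and Cyp2b10 at 2.23 and Me1 at −1.41 lie at the ends.

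Markers of other liver cells also differed between the genotypes in the libraries that gave these values. All 7 cholangiocyte markers tested were higher in both LXRDKO livers, beside 21.7% of all genes tested. Their sum was 3448 and 4909 normalized counts in WT against 6027 and 6868 in LXRDKO. The sum of 7 stellate cell markers was 12108 and 13476 against 17489 and 19737, with 5 of them higher in both LXRDKO livers (beside 21.7%). Lrat and Col1a1 overlapped, with log2 fold changes of 0.32 and 0.55. The sum of 6 sinusoidal endothelial markers was 10344 and 9253 against 7849 and 6005, with 4 lower in both LXRDKO livers (beside 23.0%). Stab2 and Lyve1 overlapped, and Lyve1 had a log2 fold change of 0.23. Kdr (−1.17) was down-regulated by limma (limma adjusted P = 0.0498, beside 0.186% of all genes) and by DESeq2. DESeq2, but not limma, also called Epcam, Dcn and Reln up-regulated (beside 1.56%). Lymphocyte and neutrophil markers summed to between 78.3 and 201. Hepatocyte markers summed to between 6272426 and 7513431 with overlapping genotypes, a sum made up mostly of albumin. Of the 8 hepatocyte markers 4 (Tat, Cps1, Ass1 and Hnf4a) were higher in both LXRDKO livers (beside 21.7% of all genes tested) and 1 (Ttr) was lower (beside 23.0%). DESeq2 called Tat (log2 fold change 0.65 by limma, DESeq2 adjusted P = 0.00675) and Hnf4a (0.60, DESeq2 adjusted P = 0.0115) up-regulated, and limma called neither. Gstp1 is also expressed in bile duct cells, and the part of these shifts in the values of Gstp1 or of any other member was not tested.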

How the data were processed

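RNA was extracted from frozen liver, captured as mRNA and made into libraries with a stranded kit. Per the labels and the study's methods, the authors aligned reads with STAR 2.6.0c to mm10 after FastQC and normalized counts with DESeq2. The counting tool, its strand setting and the annotation are not given in the sources used here. The deposited signal values are gene counts scaled by the size factor of their library, and 0 other columns of sample values were left unmapped. Dividing by the value of 1 read returned whole reads for 99.996 to 100% of values (tolerance 0.001 of 1 read), and these recovered counts gave size factors within 3.04e-10 of those that DESeq2 computes.

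limma 3.58.1 (R 4.3.3, with trend) was run on log2(normalized count + 1) for genes with a mean of at least 10 over the 4 libraries. The pseudocount shrinks the log2 fold changes of low genes, as for Gsta1, which was 1.15 with a pseudocount of 0.5 and 0.94 with 8. P values are two-sided with Benjamini-Hochberg adjustment over all genes tested and a threshold of 0.05. DESeq2 1.42.0 and edgeR 4.0.16 on the recovered reads were alternatives, as were other pseudocounts, filters, scalings, moderation, a replicate block and leaving out each library. The scripts were tested on simulated counts. Each library is labelled as a separate replicate. The P values weigh the genotype difference against the spread between livers of a genotype, which is estimated partly by pooling across genes. Gene models were matched by ID to GENCODE M21 (GRCm38), which held 24987 of the 25010 genes and all 35 members. Words of 50 bases were compared between all transcripts on both strands.

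The members, the pathway lists and the marker lists were chosen with earlier results of these data known. Values per liver are given for the 10 members with the largest log2 fold change, the 5 with the highest level per length, Nfe2l2, Keap1, Nqo1, Hmox1 and Txnrd1, and pathway genes past the threshold in limma or DESeq2 plus Gclc, Gclm, Slc7a11, Mgst1 and Gstz1. Further members with values were added after their values were seen. Coding-sequence identity was used in place of the planned protein identity.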

Additional observations from a re-analysis of the deposited data

How the results depend on the processing

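Among 431 alternative values of 27 named results, 408 kept their direction and side of the threshold, 3 lost and 7 gained significance, and 13 changed direction, and none of 287 values of members passed the threshold other than Gstm3 without WT replicate 2. Of all genes tested, 50 were called, against 138 at an adjusted P value under 0.10, 25 with a mean of at least 50, 1 without the trend, 567 by DESeq2 and 2 to 262 with a library left out. The pathway genes called went from 1 to 0 without the trend, 6 by DESeq2 and 0 to 3 with a library left out, and the members called from 0 to between 0 and 1. With libraries left out the median log2 fold change ranged from −0.25 to 0.081 for the glutathione transferases and from −0.076 to 0.015 for the NRF2 and antioxidant genes, and the cause was not tested. Hmox1 turned to −0.023 by DESeq2 and −0.017 by edgeR. Log2 fold changes that turned with a library left out were those of Gstm3 (−0.18 to 1.36), Hmox1 (−0.48 to 0.65), Gstm1 (−0.51 to 0.30), Nfe2l2 (−0.33 to 0.13), Gpx1 (−0.054 to 0.34), Cat (−0.27 to 0.037), Mgst1 (−0.24 to 0.063) and Gstz1 (−0.17 to 0.016). Without a turn in direction, leaving out a library moved Gsta1 from 0.027 to 2.23, Gstp2 from 0.15 to 1.83, Cbr3 from 0.41 to 1.47, Nqo1 from 0.035 to 0.92, Ephx1 from 0.27 to 0.67, Gstp1 from 0.16 to 0.51, Gstp3 from 0.18 to 0.61, Gstt2 from −0.79 to −0.11, Gstt3 from −0.59 to −0.21, Gstm7 from −0.50 to −0.18 and Txnrd1 from −0.26 to −0.097. With the replicate number as a block 90 genes, 0 members and 2 pathway genes (Cyp2b10 and Me1) were called. Same-numbered livers did not deviate together across genes (correlation 0.0031). The labels give no pairing, and the main fit did not pair the livers. This correlation cannot exclude that some livers were handled together. Gsto2 and Slc7a11 had too few reads to be tested.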

Other observations

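A pair of pathway genes, chosen after their values were seen, differed widely between livers of the same genotype. Selenbp2, a selenium-binding protein, was at 30823 normalized counts in WT replicate 1 and 9121 in WT replicate 2, and at 32991 and 31998 in the LXRDKO livers. Txnip, which binds and inhibits thioredoxin and responds to glucose, was at 7563 and 20599 in WT and 3957 and 12425 in LXRDKO, with replicate 2 the higher liver of both genotypes. With all 4 libraries neither gene passed the threshold, with limma adjusted P values of 0.521 and 0.662. Without WT replicate 1 Selenbp2 did pass, at a log2 fold change of 1.83 and a limma adjusted P value of 0.00255, in a fit where WT was the single low liver and the spread came from the LXRDKO livers alone.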
